A study of Caenorhabditis elegans with 52 samples.

Results

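Low-abundance Spermatogenic piRNAs of Caenorhabditis elegans were described across 42 small RNA libraries in 21 groups of 2. They are the 1370 piRNAs that the authors' table classes as Spermatogenic and whose mean level over 4 control libraries was at least 1 and under 10 RPM, reads scaled to the depth of the library. They make up 35.9% of the 3814 Spermatogenic piRNAs and 9.33% of the 14680 piRNAs listed. Of the other Spermatogenic piRNAs, 2012 were below 1 RPM in the controls, 425 were at 10 RPM or more, and 7 had no control value. The levels in the isogenic control of the disl-2 experiment and in the paired control of the pup-1 experiment chose the set, so every comparison with those controls is given below as a description without a test.

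piRNAs are small RNAs of the germline that guide the Piwi protein PRG-1 to other transcripts. In this nematode most are transcribed as separate short genes from a pair of clusters on chromosome IV, then trimmed and methylated at the 3′ end. A hermaphrodite germline makes sperm during larval development and oocytes in the adult, and piRNA sets that differ between male and female germlines are known in this species as spermatogenic and oogenic piRNAs. DISL-2 is a homolog of DIS3L2, an exonuclease that degrades RNA from the 3′ end. HENN-1 is the methyltransferase of piRNA 3′ ends, PARN-1 the nuclease that trims them, PUP-1 a poly(U) polymerase that adds uridines to RNA 3′ ends, and TOFU-5 a factor needed for piRNA transcription. The libraries came from whole animals, and in such bulk samples fewer germ cells and less RNA per cell cannot be told apart. The table lists piRNAs and no mRNA, so neither the loss of the mutated genes nor the germline stage could be checked here against markers.

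The groups were disl-2(how27) III, disl-2(tm5337) III and their isogenic control, the henn-1 double mutant henn-1(tm4477) III with disl-2(how18) III against henn-1(tm4477), and the parn-1 double mutant disl-2(tm5337) with parn-1(tm869) V against parn-1(tm869). The pup-1 experiment held disl-2(how27) with pup-1(how20) III, disl-2(tm5337) with pup-1(how50), pup-1(tm1021) and the paired control, named N2 in the deposited values. Both of its double mutants thus carry another pup-1 allele than the single mutant, and every comparison between them includes that difference. The time course used animals with gfp::aid::tofu-5(how48) I and sun-1p::mcherry::tirI I, in which auxin depletes TOFU-5 where the germline sun-1 promoter drives TIR1, with or without disl-2(how27). These animals were collected at 0, 2, 4, 6 and 12 h of 4 mM auxin. All animals were day 1 adults with eggs. Whether the replicates of a group were grown apart is not stated.

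Library depth lay between 8807176 and 52798564 reads, so 1 RPM stood for between 8.81 and 52.8 reads, and a level of 0 allows up to 3 reads, or between 0.0568 and 0.341 RPM. These floors cover counting error only. Reads divided between loci made the level of 355 of the 1370 piRNAs (25.9%) uncertain, and 1015 had whole reads in every library. Replicate libraries of 1 group had a Pearson r between 0.855 and 0.965 over the set. The henn-1 replicates were at 0.865. The disl-2(tm5337) replicates differed most in level, with summed values of 4868 and 3341 RPM.

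All 1370 piRNAs lay on chromosome IV. Cluster b, the larger cluster nearer the right end, held 1088 of them (79.4%), cluster a, nearer the left end, held 251 (18.3%), and 31 (2.26%) lay elsewhere on the chromosome. Among all 5614 piRNAs with a control mean of at least 1 RPM, cluster b held 83.1% and cluster a 15.4%. Of the set, 494 (36.1%) lay inside an annotated coding gene, against 35.2% of all 5614. The piRNAs are named after 101 genomic clones, of which Y105C5 gave 232 members, Y57G11 138 and Y73F8 116. The median control mean was 2.79 RPM (quartiles 1.61 and 4.89), and 728 of the piRNAs were under 3 RPM. At the lower bound, 21ur-3154 (1.0003 RPM) and 21ur-2739 (1.0014 RPM) were just inside, and 21ur-1338 (0.9987 RPM) and 21ur-5094 (0.9989 RPM) just outside. At the upper bound, 21ur-11292 (9.97 RPM) and 21ur-2134 (9.99 RPM) were just inside, and 21ur-8297 (10.0003 RPM) and 21ur-9706 (10.02 RPM) just outside.

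The summed level of the set was highest in the henn-1 double mutant, with 12513 and 12621 RPM, and in henn-1, with 9989 and 10821 RPM. The disl-2(how27) libraries came next, with 8566 and 7926 RPM. Intermediate values were found in the pup-1(how20) double mutant (5206 and 4878 RPM), in the isogenic control (4976 and 5194 RPM) and in the paired control (5026 and 4298 RPM), which overlapped. Values in or below that range were found in disl-2(tm5337), in the pup-1(how50) double mutant (4913 and 3813 RPM) and in pup-1 (3515 and 2926 RPM). The parn-1 double mutant held 2568 and 2026 RPM and parn-1 held 1525 and 1251 RPM, the lowest of the steady-state groups. In the parn-1 libraries 36 and 40 members were listed at 0, and in the parn-1 double mutant 10 and 13. Among the steady-state libraries, the set's share of all piRNA RPM was lowest in henn-1, at 3.77% and 3.67%. It was highest, at 9.55%, in 1 library of the parn-1 double mutant.

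**Figure D1:**
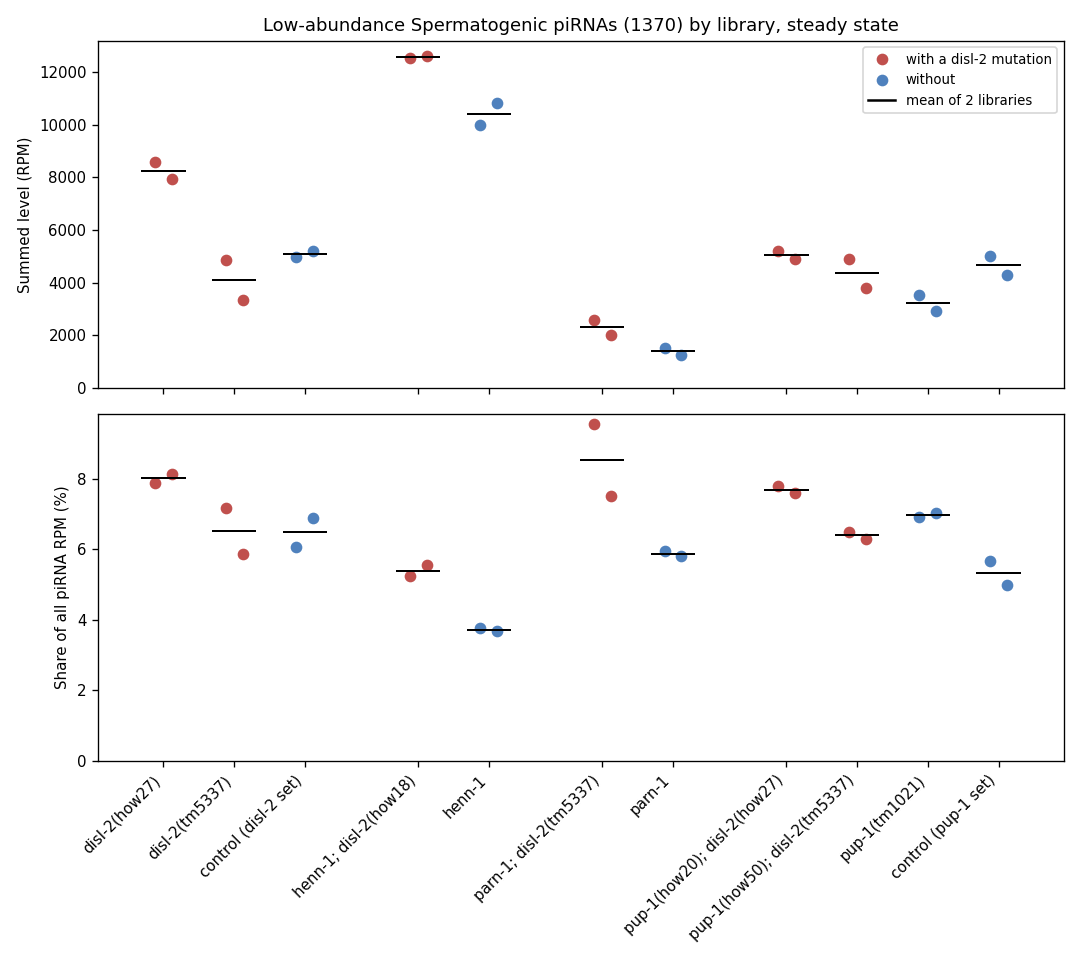
Summed level of the 1370 low-abundance Spermatogenic piRNAs in RPM (upper axes) and their share of all piRNA RPM in percent (lower axes) in each steady-state library; each point is a library and each bar the mean of 2. The 4 libraries with neither disl-2 nor another mutation lie between 4298 and 5194 RPM, and the henn-1 double mutant, at 12513 and 12621 RPM, is the highest group.

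Against the isogenic control, the set as a whole was higher in disl-2(how27) and lower in disl-2(tm5337). The summed level was 8246 ± 453 RPM in disl-2(how27), against 5085 ± 154 RPM in the isogenic control (SD, n = 2), a ratio of 1.62. In 1138 of the 1370 piRNAs both disl-2(how27) libraries lay above both control libraries, and in 4 both lay below. Such non-overlap upward was found in 69.1% of all 5614 piRNAs and downward in 2.44%. The sum of all 5614 piRNAs had a ratio of 1.30 and that of abundant Spermatogenic piRNAs 1.42. In disl-2(tm5337) the summed level was 4104 ± 1080 RPM (SD, n = 2), 0.807 of the same control, where the ratio was 0.781 for all 5614 and 0.659 for abundant Spermatogenic piRNAs. There 192 piRNAs lay above and 599 below both controls, with 22.1% and 42.7% of all 5614 doing so. The log2 ratio of the sums, -0.31, was -0.06 without disl-2(tm5337) replicate 2 and -0.61 without its replicate 1. Rescaling all libraries to equal medians left the disl-2(how27) difference at 0.12, against 0.70 as deposited.

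21ur-7828, in cluster a, held 33.6 and 27.5 RPM in disl-2(how27), against 8.07 and 9.93 RPM in the isogenic control. The same piRNA held 6.27 and 4.73 RPM in disl-2(tm5337), below both control libraries. 21ur-9044, also in cluster a, held 6.85 and 7.27 RPM in disl-2(how27), 5.57 and 3.85 RPM in disl-2(tm5337), and 2.04 and 2.01 RPM in the isogenic control. Both alleles thus lay above the control for 21ur-9044 and on opposite sides of it for 21ur-7828. Among the few piRNAs lower in disl-2(how27), 21ur-6256 held 2.05 and 3.73 RPM against 3.90 and 3.85 RPM in the isogenic control. Low in disl-2(tm5337) were 21ur-7404, with 0.575 and 0.576 RPM against 9.39 and 7.47 RPM in the isogenic control, and 21ur-2114, with 0.363 and 0.4545 RPM against 4.26 and 6.58 RPM in the isogenic control. 21ur-9190 went the other way, with 16.3 and 6.58 RPM in disl-2(tm5337) and 1.81 and 0.837 RPM in the isogenic control. In each of these 3 piRNAs the groups did not overlap, which the rule for naming them required.

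In pup-1(tm1021) the summed level was 3221 ± 416 RPM, against 4662 ± 515 RPM in the paired control (SD, n = 2), a ratio of 0.691. Both pup-1 libraries lay below both controls for 861 piRNAs and above for 191, where 73.8% and 9.85% of all 5614 did so. The sum of all 5614 piRNAs had a lower ratio in pup-1 than the set, at a log2 of -0.92 against -0.53, and rescaling to equal medians turned the set's difference to 0.34. 21ur-11197, in cluster a, held 1.87 and 1.29 RPM in pup-1 and 16.7 and 13.1 RPM in the paired control. 21ur-8480 held 1.06 and 0.998 RPM in pup-1 and 15.2 and 12.2 RPM in the paired control. In the opposite direction, 21ur-3322 held 9.98 and 10.975 RPM in pup-1 and 0.531 and 0.836 RPM in the paired control, and it was also high in disl-2(tm5337), with 17.195 and 9.42 RPM against 2.63 and 3.51 RPM in the isogenic control.

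The controls themselves, which carry no labelled mutation, also differed. The paired control and the isogenic control had summed levels of 4662 ± 515 and 5085 ± 154 RPM (SD, n = 2). Single piRNAs differed more, since 398 piRNAs of the set were higher and 512 lower in both paired control libraries than in both isogenic ones, where 48.0% and 25.5% of all 5614 were. Their profiles over the 1370 piRNAs had a Pearson r of 0.725 on log2(RPM + 0.5), where points share the libraries and their depth. The bounds on the mean of these same libraries narrow the range of levels in them, so this r is a description of the set only. For 21ur-3322 the isogenic control held 2.63 and 3.51 RPM and the paired control 0.531 and 0.836 RPM. Low-abundance Oogenic piRNAs, chosen by the same bounds, summed to 3120 RPM in the paired control and 1807 RPM in the isogenic control, so the balance of the classes also differed between the controls. The r between group means was 0.947 for disl-2(how27) and its control, whose levels differed by a median of 0.58 on the log2 scale, 0.959 for both pup-1 double mutants (0.21) and 0.939 for both TOFU-5 degron strains at 0 h (0.22).

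**Figure D2:**
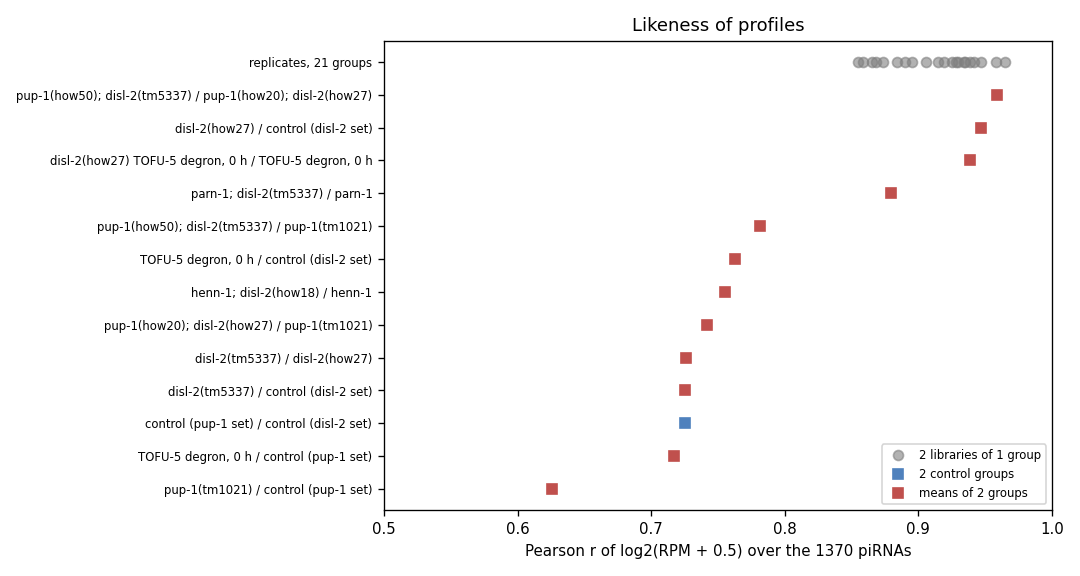
Pearson r of log2(RPM + 0.5) over the 1370 piRNAs between the 2 libraries of a group (grey) and between the means of 2 groups (squares; names give the first group and then the second). Replicates lie between 0.855 and 0.965, while the 2 control groups (blue square), whose mean chose the set, lie at 0.725 and pup-1(tm1021) against its control at 0.626.

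Comparisons that use none of the 4 control libraries were tested. Each was fitted with limma on log2(RPM + 0.5) for all 5614 piRNAs with a control mean of at least 1 RPM, which includes all 1370 members, and a piRNA rose or fell where its Benjamini-Hochberg adjusted p over the 5614 was under 0.05. Changes are on that log2 scale, which understates those of low piRNAs. All adjusted p-values below are from limma.

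Without HENN-1, loss of DISL-2 went with higher levels for more of the set than it went with lower ones. The summed level was 12567 ± 75.9 RPM in the henn-1 double mutant and 10405 ± 589 RPM in henn-1 (SD, n = 2), a ratio of 1.21, while the sum of all 5614 piRNAs was lower in the double mutant (log2 -0.28). Of the 1370 piRNAs, 298 (21.8%) rose and 25 (1.82%) fell, where 16.5% of all 5614 rose and 9.39% fell. The median log2 change was 0.41 in the set (quartiles -0.10 and 0.94) and 0.15 over all 5614. After rescaling to equal medians these medians were 0.26 and -0.02, with 233 rises and 41 falls in the set. All 5614 then had 755 rises and 700 falls. Low-abundance Oogenic piRNAs had 47 rises and 103 falls of 622, and abundant Spermatogenic piRNAs 54 rises and 14 falls of 425. Low-abundance unclassed piRNAs, within the same bounds but in neither class, had 406 rises (21.35%) and 178 falls (9.36%) of 1902. Their share that rose was thus near that of the set. The classes were not tested against each other. In cluster a, 104 of 251 members rose and 0 fell by limma (151 at an unadjusted p under 0.05 in either direction), with a median of 0.82, and over all 864 tested piRNAs of cluster a 44.9% rose. In cluster b, 184 of 1088 members rose and 25 fell (median 0.32), while all tested piRNAs there rose and fell in equal shares of 11.2%.

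21ur-2665, inside a coding gene outside both clusters, held 11.9 and 12.3 RPM in the henn-1 double mutant and 2.56 and 0.758 RPM in henn-1. It rose by a log2 of 2.68 ± 0.42 (SE, adjusted p = 0.0187). 21ur-17, in cluster b, held 25.6 and 24.5 RPM in the double mutant and 5.36 and 2.75 RPM in henn-1 (log2 2.55 ± 0.33, adjusted p = 0.0187). 21ur-6002 held 18.4 and 21.4 RPM in the double mutant and 5.44 and 1.70 RPM in henn-1. In each of these 3 piRNAs both double mutant libraries lay above both henn-1 libraries, which the rule for naming them required. The rises of 21ur-5038 (6.21 and 9.07 RPM in the double mutant, 2.24 and 0.0947 RPM in henn-1) and 21ur-1470 (4.02 and 4.65 RPM, and 0.720 and 0.0947 RPM in henn-1) rest partly on a henn-1 library with 1 read of each.

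Among the falls in the henn-1 double mutant, 21ur-5668 held 14.7 and 13.4 RPM in the double mutant and 51.4 and 80.6 RPM in henn-1 (log2 -2.16 ± 0.30, adjusted p = 0.0187). 21ur-2525 held 23.2 and 18.4 RPM in the double mutant and 57.0 and 89.6 RPM in henn-1 (log2 -1.76 ± 0.31, adjusted p = 0.0210). 21ur-5284, 21ur-7154 and 21ur-3794 fell by 2.04, 1.51 and 1.496, and all 5 lie in cluster b. The counts moved with single libraries. Rises numbered 644 without henn-1 replicate 1, 560 without henn-1 replicate 2, 87 without double mutant replicate 1 and 61 without double mutant replicate 2, and falls 244, 79, 4 and 3. Without the 1 RPM filter, limma called 0 of the 1370, with 482 at an unadjusted p under 0.05, and 0 of all 14581 tested.

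Without PARN-1 the set was the lowest, and loss of DISL-2 went with a higher level. The summed level was 2297 ± 384 RPM in the parn-1 double mutant and 1388 ± 194 RPM in parn-1 (SD, n = 2), a ratio of 1.65, where the sum of all 5614 had a log2 difference of 0.15. Of the set, 298 (21.8%) rose and 5 (0.365%) fell, where 16.0% of all 5614 rose and 5.02% fell. The difference was above 0 for 1127 piRNAs (82.3%), and the median log2 change was 0.38 in the set and 0.21 over all 5614. Abundant Spermatogenic piRNAs rose in 137 of 425 and fell in 5, and low-abundance Oogenic piRNAs rose in 46 of 622 and fell in 41. Low-abundance unclassed piRNAs rose in 269 of 1902 and fell in 83. In cluster a, 92 of 251 members rose and 0 fell by limma (135 at an unadjusted p under 0.05), and 37.4% of all tested piRNAs there rose. In cluster b, 204 of 1088 members rose and 5 fell, where 12.2% of all tested piRNAs there rose and 5.998% fell. After rescaling to equal medians, which shifted the median of all 5614 by 0.24, the set had 154 rises and 32 falls. All 5614 then had 448 rises and 750 falls. The median of the set was 0.17. That median was 0.64 with a pseudocount of 0.1 and 0.16 with 2 RPM, and 0.60 with the filter applied to the parn-1 libraries, which left 578 members.

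21ur-7828, the cluster a piRNA that was high in disl-2(how27), held 6.30 and 4.90 RPM in the parn-1 double mutant and 0.948 and 1.15 RPM in parn-1 (log2 1.97 ± 0.31, adjusted p = 0.000679). 21ur-5601, in cluster b, held 19.4 and 11.1 RPM in the double mutant and 4.29 and 3.77 RPM in parn-1 (log2 1.75 ± 0.30, adjusted p = 0.000949). 21ur-4037 held 9.29 and 3.61 RPM in the double mutant and 1.40 and 1.27 RPM in parn-1. The double mutant replicates differed by more than 2-fold for 21ur-4037, and both lay above parn-1, which the rule for naming it required. 21ur-6965 and 21ur-4445 rose by a log2 of 1.75 and 1.66. The piRNAs that fell all lie in cluster b. 21ur-2133 held 6.26 and 4.17 RPM in the double mutant and 12.6 and 9.13 RPM in parn-1 (log2 -1.001 ± 0.29, adjusted p = 0.0221), and 21ur-2909 held 1.79 and 1.66 RPM in the double mutant and 5.10 and 3.85 RPM in parn-1. The other falls, named after their values were seen, were those of 21ur-6014 (0.558 and 0.649 RPM in the double mutant, 2.26 and 1.83 RPM in parn-1), 21ur-4357 (log2 -0.91) and 21ur-9400 (log2 -0.80), of which 21ur-9400 has divided reads.

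The calls in the parn-1 background depended on both parn-1 libraries. Limma called 0 piRNAs of the set without parn-1 replicate 1 and 0 without parn-1 replicate 2, with 342 and 269 at an unadjusted p under 0.05. Rises numbered 107 without double mutant replicate 1 and 449 without double mutant replicate 2, and falls 3 and 11. Without the filter, 1 piRNA of the set rose and 0 fell by limma, with 363 at an unadjusted p under 0.05. Of all 14581 piRNAs tested then, 107 rose and 0 fell.

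**Figure D3:**
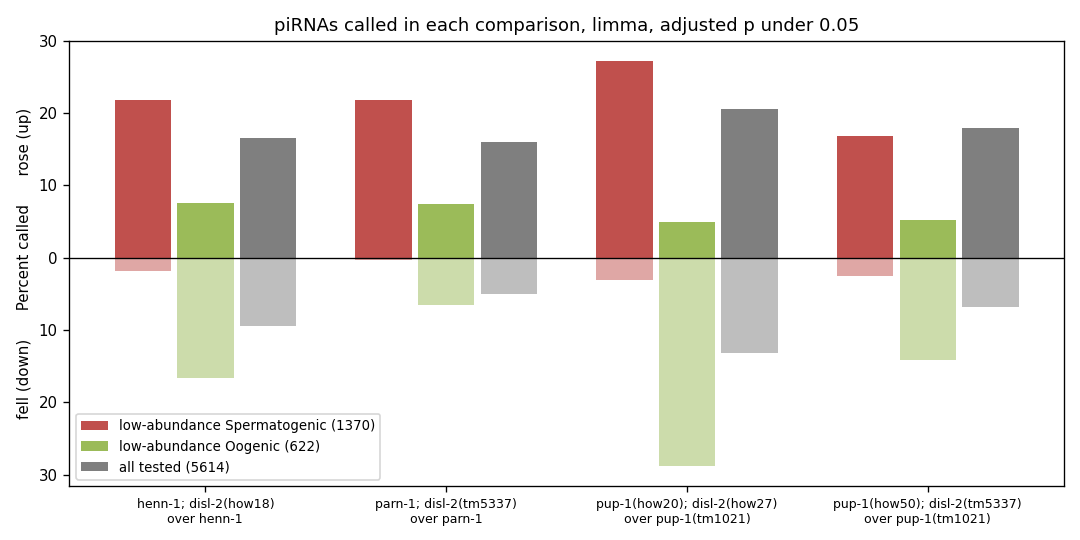
Percent of piRNAs that rose (above the line) or fell (below, paler) in each comparison, for the 1370 low-abundance Spermatogenic piRNAs, the 622 low-abundance Oogenic piRNAs and all 5614 tested. In the first 3 comparisons 21.8%, 21.8% and 27.2% of the 1370 rose, against 16.5%, 16.0% and 20.6% of all tested, and in the last 16.8% against 18.0%.

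In the pup-1 experiment the set was higher in both double mutants than in pup-1(tm1021). The summed level was 5042 ± 232 RPM in the pup-1(how20) double mutant, which carries disl-2(how27), 4363 ± 778 RPM in the pup-1(how50) double mutant, which carries disl-2(tm5337), and 3221 ± 416 RPM in pup-1 (SD, n = 2 each). In the comparison with disl-2(how27) 372 of the set (27.2%) rose and 42 (3.07%) fell, where 20.6% of all 5614 rose and 13.2% fell. In that with disl-2(tm5337) 230 (16.8%) rose and 35 (2.55%) fell, where 18.0% of all 5614 rose and 6.82% fell. The share that rose with disl-2(tm5337) was thus near that of all piRNAs. Both comparisons use the same pup-1 libraries. The median log2 change of the set was 0.36 and 0.25, against 0.06 and 0.16 over all 5614. With a pseudocount of 2 RPM the set's medians were 0.21 and 0.14. That of the disl-2(tm5337) comparison was 0.15 after rescaling to equal medians, 0.10 without double mutant replicate 1, 0.41 without its replicate 2 and 0.14 without pup-1 replicate 2.

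Members at 3 RPM or more in the controls rose in 242 of 642 (37.7%) with disl-2(how27) and in 163 (25.4%) with disl-2(tm5337). Those under 3 RPM rose in 130 (17.9%) and 67 (9.20%) of 728, where 20.6% and 18.0% of all 5614 rose. Among abundant Spermatogenic piRNAs 280 and 246 of 425 rose, and their sums differed from pup-1 by a log2 of 1.40 and 1.16, against 0.65 and 0.44 in the low-abundance set. Low-abundance Oogenic piRNAs had 31 and 32 rises of 622 and 179 and 88 falls. Low-abundance unclassed piRNAs had 202 and 179 rises of 1902 and 315 and 172 falls. These classes were not tested against each other.

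The same 5 piRNAs, all in cluster b, headed the rises of both double mutants. 21ur-7404 held 5.45 and 7.15 RPM in the pup-1(how20) double mutant, 8.72 and 5.32 RPM in the pup-1(how50) double mutant, and 0.218 and 0.547 RPM in pup-1. Its log2 change was 2.96 ± 0.35 (adjusted p = 3.3e-07) with disl-2(how27) and 3.08 ± 0.35 (adjusted p = 1.1e-06) with disl-2(tm5337). This is the piRNA that was low in disl-2(tm5337) alone, while its level was above that of pup-1 in the double mutant that carries the same disl-2 allele. That double mutant and disl-2(tm5337) alone were not tested against each other. 21ur-6683 held 27.1 and 23.8 RPM, 15.6 and 13.9 RPM in these double mutants, and 3.46 and 3.19 RPM in pup-1. 21ur-11953 held 6.39 and 6.04 RPM, 4.40 and 3.00 RPM in the double mutants, and 0.499 and 0.290 RPM in pup-1. 21ur-5697 rose by 2.69 and 2.58. For 21ur-5547 the pup-1 libraries held 0.0624 and 0.386 RPM, of which the first is 2 reads, against 4.38 and 13.7 RPM and 7.61 and 3.42 RPM in the double mutants, so its change depends on the pseudocount.

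Of the falls, 21ur-783 held 2.10 and 1.43 RPM in the pup-1(how20) double mutant and 6.95 and 8.46 RPM in pup-1 (log2 -1.87 ± 0.33, adjusted p = 8.9e-05). 21ur-6098 held 3.66 and 1.48 RPM in the pup-1(how20) double mutant, 1.15 and 1.63 RPM in the pup-1(how50) double mutant, and 9.07 and 6.02 RPM in pup-1. 21ur-3322, high in pup-1 against its control, held 4.69 and 2.49 RPM and 2.48 and 5.16 RPM in the double mutants and 9.98 and 10.975 RPM in pup-1. 21ur-7295 fell by 1.74 and 1.34. 21ur-3191 fell by 1.46 with disl-2(how27), and 21ur-6256 and 21ur-7292 by 1.45 and 1.29 with disl-2(tm5337). Rises with disl-2(how27) numbered 229 without pup-1 replicate 1 and 127 without pup-1 replicate 2, and its falls 79 without double mutant replicate 1, 9 without pup-1 replicate 1 and 15 without pup-1 replicate 2. Rises with disl-2(tm5337) numbered 42 without double mutant replicate 1, 123 without pup-1 replicate 1 and 47 without pup-1 replicate 2, and its falls 8, 9 and 8. Its falls were 15 without double mutant replicate 2, and 53 without replicate 1 of the pup-1(how20) double mutant, which shares the fit. Without the filter, the disl-2(how27) comparison had 38 rises and 5 falls, where all 14581 tested had 159 and 147. The disl-2(tm5337) comparison then had 6 rises and 0 falls by limma, with 407 at an unadjusted p under 0.05. All 14581 there had 27 rises and 54 falls.

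The henn-1, parn-1 and pup-1(how20) comparisons share no library, so their lists of piRNAs that rose can be laid over each other. In at least 1 of them 740 of the 1370 rose (54.0%, against 41.6% of all 5614). The henn-1 and parn-1 lists shared 77 piRNAs (25.8% of each), the henn-1 and pup-1 lists 46 (15.4% and 12.4%) and the parn-1 and pup-1 lists 124 (41.6% and 33.3%). Over all 5614 piRNAs the same pairs of lists shared 227 (24.5% and 25.2%), 111 (11.96% and 9.62%) and 351 (39.0% and 30.4%), so the overlaps in the set were close to those over all piRNAs. In all of them 19 of the set rose (1.39%) and 0 fell, where 42 (0.748%) of all 5614 rose and 11 (0.196%) fell. Single comparisons had rises in 21.8%, 21.8% and 27.2% of the set (henn-1, parn-1 and pup-1), against 16.5%, 16.0% and 20.6% of all 5614. Larger shares in at least 1 or in all of them thus add no separate result. The henn-1 and pup-1 overlap (15.4% of the henn-1 list) lay below the 27.2%, and the other overlaps lay above the set's shares.

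Of these 19, the 5 named by rule were 21ur-11505, 21ur-13128, 21ur-7837 and 21ur-1414 in cluster a, and 21ur-8024 in cluster b. 21ur-11505 held 5.14 and 5.52 RPM in the henn-1 double mutant and 1.44 and 1.14 RPM in henn-1, 2.15 and 0.892 RPM in the parn-1 double mutant and 0.316 and 0.278 RPM in parn-1, and 3.40 and 3.23 RPM in the pup-1(how20) double mutant and 1.18 and 1.42 RPM in pup-1. Its log2 changes were 1.71 ± 0.26, 1.27 ± 0.32 and 1.08 ± 0.33 (adjusted p = 0.0187, 0.0107 and 0.0121). 21ur-1414 held 9.66 and 8.14 RPM in the henn-1 double mutant and 3.84 and 4.45 RPM in henn-1, 3.43 and 2.76 RPM in the parn-1 double mutant and 0.903 and 1.11 RPM in parn-1, and 3.35 and 3.23 RPM in the pup-1(how20) double mutant and 0.624 and 0.257 RPM in pup-1. 21ur-8024 held 5.75 and 7.33 RPM in the henn-1 double mutant and 2.00 and 0.852 RPM in henn-1, and 12.2 and 8.07 RPM in the parn-1 double mutant and 2.93 and 4.72 RPM in parn-1. In each comparison the double mutant libraries of these 5 lay above those of the single mutant. The 5 were picked as rises in these comparisons, so this order is no separate evidence. In the TOFU-5 degron strain at 0 h, where both groups carry the degron and TIR1, they differed with disl-2(how27) by log2 0.60, 0.44, 0.54, 0.08 and 0.05, with adjusted p between 0.584 and 0.976. These 0 h values entered the mean change by which the 5 were picked from the 19, so their signs are no separate evidence.

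**Figure D4:**
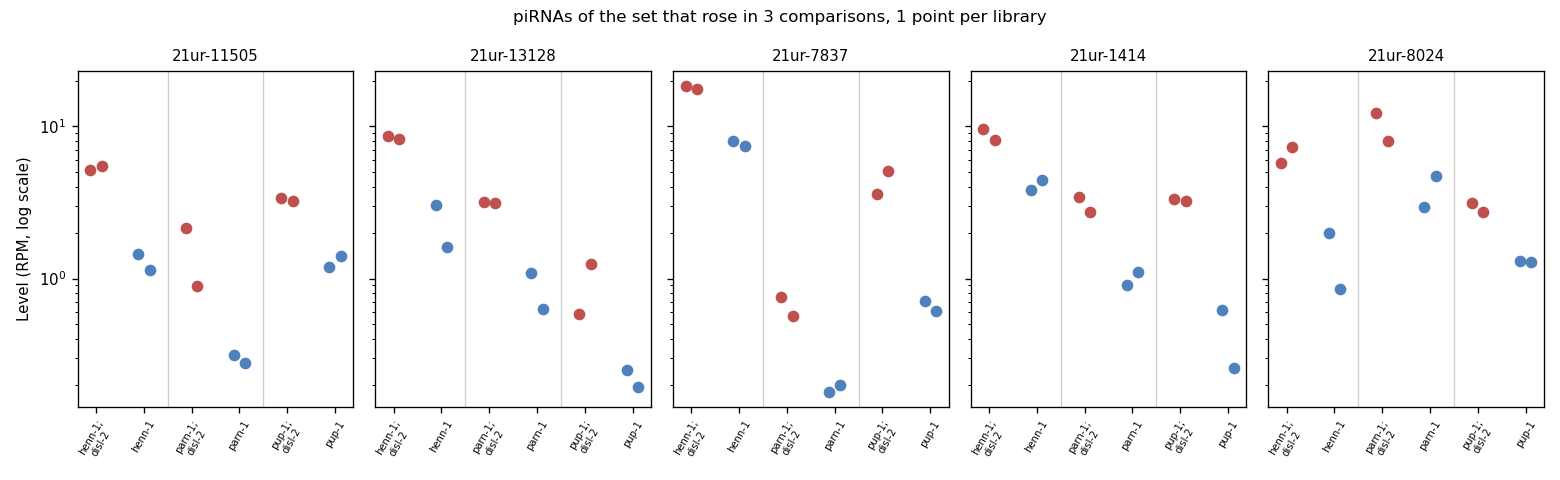
Level in RPM, on a log axis, of the 5 named piRNAs that rose in the henn-1, parn-1 and pup-1(how20) comparisons, with 1 point per library; red points carry a disl-2 mutation (how18, tm5337 and how27, left to right) and blue points do not. In every panel each pair of red points lies above its pair of blue points. The piRNAs were picked as rises, so this order is no separate evidence. Levels run from 21ur-7837 at 18.3 and 17.5 RPM in the henn-1 double mutant to the same piRNA at 0.181 and 0.198 RPM in parn-1.

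Only 1 piRNA of the set fell in more than 1 of these comparisons. 21ur-4208 fell in the henn-1 double mutant (18.7 and 16.1 RPM, against 41.7 and 30.6 RPM in henn-1, log2 -1.02, adjusted p = 0.0381) and in the pup-1(how20) double mutant (2.73 and 1.43 RPM, against 4.08 and 4.02 RPM in pup-1, log2 -0.87, adjusted p = 0.0487). It is 1 of the 25 falls in henn-1 (4%) and of the 42 with pup-1(how20) (2.38%), where all 5614 shared 64 falls between this pair (12.1% and 8.61%). Opposite calls were found between backgrounds as well. Of the set, 9 (0.657%) rose in the henn-1 double mutant and fell in the pup-1(how20) double mutant, and another 9 did the reverse, against 1.80% and 1.75% of all 5614. A further 8 (0.584%) rose in the parn-1 double mutant and fell in the henn-1 double mutant, and 5 (0.365%) rose in the parn-1 double mutant and fell in the pup-1(how20) double mutant, against 0.606% and 0.784% of all 5614.

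In the TOFU-5 degron strain before depletion, few differences of the set with disl-2(how27) passed the test. The summed level at 0 h was 4438 ± 840 RPM with disl-2(how27) and 4731 ± 488 RPM without it (SD, n = 2), and the libraries overlapped. Limma called 1 rise and 0 falls among the 1370, where 0.107% of all 5614 rose and 1.07% fell, and 64 of the 1370 were at an unadjusted p under 0.05. The rise, named after its values were seen, was that of 21ur-4308, with 1.73 and 4.72 RPM with disl-2(how27) and 0.672 and 0.717 RPM without it (log2 1.51 ± 0.35, adjusted p = 0.0314). It was lost without either library of the degron strain at 0 h, without disl-2(how27) replicate 2 at 0 h, with a pseudocount of 0.1, after rescaling to equal medians and without the filter. The median log2 difference of the set was -0.06, with 0.06 after rescaling to equal medians and values between -0.25 and 0.13 over all alternatives run, so its sign was not stable.

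During TOFU-5 depletion the set declined in both genotypes, and more of it was left at 12 h with disl-2(how27). With disl-2(how27) the summed level was 3844 and 5032 RPM at 0 h, 4138 and 3650 RPM at 2 h, 3321 and 3530 RPM at 4 h, 2392 and 2726 RPM at 6 h, and 2183 and 2070 RPM at 12 h. In the degron strain alone it was 4386 and 5077 RPM at 0 h, 3553 and 4486 RPM at 2 h, 3198 and 3153 RPM at 4 h, 2344 and 1894 RPM at 6 h, and 1563 and 1594 RPM at 12 h. The genotypes overlapped at 0 and 2 h, and at 4, 6 and 12 h both disl-2(how27) libraries lay above both others. The fitted line of the log2 sum fell by 0.0909 ± 0.0127 per hour with disl-2(how27) and by 0.137 ± 0.0159 per hour without it (SE, 10 libraries each), which correspond to half-lives of 11.005 h (9.65 to 12.8 h at 1 SE) and 7.29 h (6.53 to 8.24 h). The difference between the lines of the sums was not tested. In both genotypes the loss was steeper up to 6 h than after it. The mean sum was 2559 RPM at 6 h and 2126 RPM at 12 h with disl-2(how27), and 2119 and 1579 RPM without it. Both half-lives thus average over the 12 h and do not give a constant rate. At 12 h, 47.9% of the 0 h sum was left with disl-2(how27) and 33.4% without it. The median member kept 44.9% (quartiles 34.0% and 58.8%) with disl-2(how27) and 29.6% (20.9% and 41.9%) without it.

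**Figure D5:**
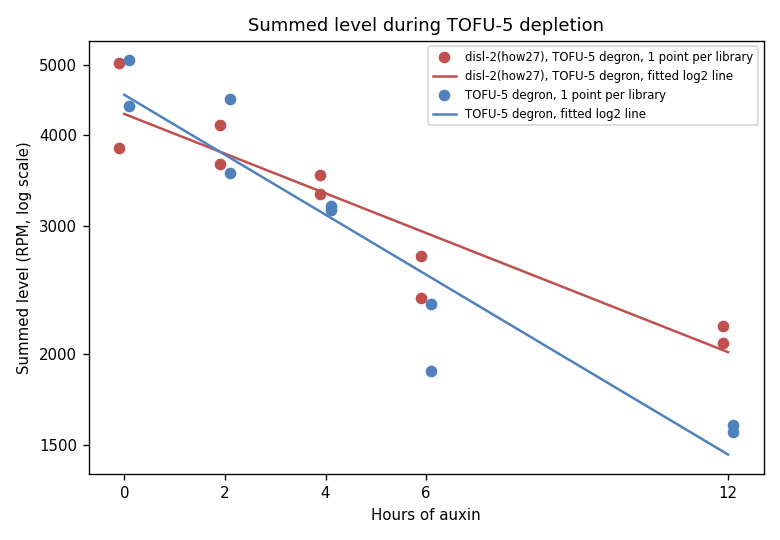
Summed level of the 1370 piRNAs in RPM, on a log axis, against hours of auxin, with 1 point per library and a line fitted to the log2 sums of each genotype; points are set apart sideways for clarity. At 12 h the disl-2(how27) libraries lie at 2183 and 2070 RPM and those without it at 1563 and 1594 RPM.

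Other classes declined too. The sums of abundant Spermatogenic piRNAs had half-lives of 10.8 h with disl-2(how27) and 6.36 h without it, those of low-abundance Oogenic piRNAs 16.8 h and 12.8 h, and those of all 5614 piRNAs 13.2 h and 8.86 h. For low-abundance unclassed piRNAs they were 13.4 h and 9.72 h. As a share of all piRNA RPM the set took 11.4% and 11.6% at 0 h and 10.1% and 10.6% at 12 h with disl-2(how27), and 9.78% and 9.69% at 0 h and 8.42% and 8.03% at 12 h without it. At 12 h, 3 and 9 members were listed at 0 with disl-2(how27), and 46 and 17 without it.

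Single piRNAs of the set were tested for a slope of log2(RPM + 0.5) over the hours. With disl-2(how27) 827 (60.4%) fell and 0 rose, where 51.1% of all 5614 fell and 0.143% rose, and in the degron strain alone 1171 (85.5%) fell and 0 rose, where 73.3% fell and 0.125% rose. By limma, 935 and 1200 of the set were at an unadjusted p under 0.05. The pseudocount flattens the slope of low piRNAs, so a half-life per piRNA is not given. The difference between the slopes was above 0, the sign of slower loss with disl-2(how27), for 1134 members (82.8%) and for 79.4% of all 5614. It passed the threshold for 0 of the 1370 by limma, as for 0.0% of all 5614, with 138 of the 1370 at an unadjusted p under 0.05. The number that fell with disl-2(how27) was 546 without its replicate 2 at 0 h and 519 without its replicate 2 at 12 h. After rescaling to equal medians, which removes the decline common to most piRNAs, disl-2(how27) animals had 4 rising and 28 falling slopes, and the degron strain alone 41 and 175. Over all 5614 these numbers were 73 and 55, and 494 and 543.

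Among the steepest slopes in the degron strain alone was that of 21ur-5677, inside a coding gene in cluster b, with 8.45 and 10.4 RPM at 0 h, 5.69 and 6.71 RPM at 4 h, and 0.781 and 0.829 RPM at 12 h (slope -0.254 ± 0.021 per hour, adjusted p = 2.6e-09). 21ur-2134, 21ur-8052, 21ur-903 and 21ur-8036 followed, with slopes between -0.242 and -0.228. 21ur-8052 was among the steepest in both genotypes. It held 2.77 and 5.93 RPM at 0 h, 1.67 and 1.95 RPM at 6 h and 1.198 and 0.450 RPM at 12 h with disl-2(how27), and 6.77 and 6.75 RPM at 0 h and 0.586 and 0.638 RPM at 12 h without it, with slopes of -0.175 ± 0.027 and -0.236 ± 0.027. With disl-2(how27) the steepest slope was that of 21ur-5975, at -0.178 ± 0.031 (adjusted p = 0.000205), and 21ur-8818, 21ur-5674 and 21ur-9142 followed.

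At the other end, 21ur-3448 was among the shallowest called slopes in both genotypes. It held 9.003 and 7.97 RPM at 0 h and 5.04 and 5.02 RPM at 12 h with disl-2(how27), and 7.92 and 8.61 RPM at 0 h and 4.69 and 4.79 RPM at 12 h without it. Its slopes of -0.053 ± 0.020 and -0.055 ± 0.020 (adjusted p = 0.0272 and 0.0153) were alike in size. 21ur-2325 held 12.8 and 9.66 RPM at 0 h and 5.66 and 8.49 RPM at 12 h in the degron strain alone (slope -0.051 ± 0.022). 21ur-1769 held 8.46 and 7.92 RPM at 0 h and 5.24 and 5.55 RPM at 12 h with disl-2(how27) (slope -0.053 ± 0.022). 21ur-4415, 21ur-348 and 21ur-2358 in the degron strain alone, and 21ur-5967, 21ur-6127 and 21ur-98 with disl-2(how27), had slopes between -0.053 and -0.048. Of these shallowest called piRNAs, 21ur-5967 lies in cluster a and the others in cluster b. Members whose slope was not called are left out of this ranking, so the threshold bounds the size of these slopes.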

How the data were processed

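Small RNAs of whole animals were treated with the phosphatase PIR-1 and sequenced, per the labels' protocols. The deposited values are RPM per piRNA, and the name of the deposited table says that the authors scaled them to sequencing depth. Trim Galore and Bowtie were used, per the submitters' processing notes, which give no versions. A genome build is not given in the sources used here, and no coordinates are printed. Of 52 samples, 42 were used, while 4 of mRNA and 6 of mutants of further poly(U) polymerases are not analysed here.

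In 14681 entries there were 14680 piRNAs, each with an identifier found in the gene table, for 14669 under the same symbol. Places come from the WBcel235 gene table. The most frequent level above 0 was taken as 1 read, which gave the depths. Per library, 88.3% to 91.6% of values were whole within 0.01 read, so no count test was run. The sequences of the piRNAs were not used here.

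Fits used limma 3.58.1 in R 4.3.3 with a trended prior on log2(RPM + 0.5), with a filter of 1 RPM in the controls. The pup-1 groups shared 1 fit, as did the time course. Prior degrees of freedom were 4.94 in henn-1, 17.3 in parn-1 and 29.3 in pup-1, against 2, 2 and 3 residual ones. Since separate cultures are not stated, the spread behind the p-values may be only technical.

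The set, its classes and its bounds, and the lists, were chosen with earlier results of these data known. Named piRNAs are, per comparison, the 5 largest changes each way among called members with libraries that do not overlap, a mean of at least 2 RPM and whole reads (for slopes, the 5 steepest and 5 shallowest, without the overlap condition). To these come up to 5 called alike in most of the comparisons that share no library, the 3 largest differences each way from a control, and the 2 nearest each bound on either side. Those called alike were ordered by number of comparisons, then by mean log2 change over all of them, the degron strain at 0 h included. The text names a part of all these piRNAs.

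Simulated data with 200 changed piRNAs of 5614 were used to test the fits. All libraries of a simulated fit had 1 common spread. In the data, replicates differed over the set by a median log2 of 0.45 in henn-1 and 0.17 in its double mutant. Changes of 1 and 2 on the log2 scale were recovered in 63% and 100% in henn-1, 16% and 82% in parn-1, 32% and 98% with pup-1(how20), and 28% and 100% with pup-1(how50). For the difference of slopes the shares were 6% and 37%. False calls numbered 5 in henn-1, 0 in parn-1, 4 with pup-1(how20), 8 with pup-1(how50) and 6 for the difference of slopes.

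Alternatives were a pseudocount of 0.1 or 2 RPM, a filter over the libraries of the fit, no filter and rescaling to equal medians. Others were replicate number as a block, members with whole reads only, and each library left out. Except for rescaling and no filter, the counts given under alternatives are those of the set alone.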

Additional observations from a re-analysis of the deposited data

Results flagged for a closer look

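The summed level of the low-abundance Spermatogenic piRNAs went opposite ways in both disl-2 alleles against the same isogenic control. Both disl-2(how27) libraries lay above both control libraries (log2 0.70 for the sums) and both disl-2(tm5337) libraries below them (log2 -0.31). The sum of all 5614 piRNAs split the same way, with ratios of 1.30 and 0.781. The difference between the alleles was not tested, since these controls chose the set, and disl-2(tm5337) replicate 1, at 4868 RPM, was close to the lower control library at 4976 RPM.

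Of the piRNAs named above, 4 passed the threshold in opposite directions in backgrounds that share no library, with every library of the double mutant on 1 side. 21ur-5668 fell in the henn-1 double mutant (log2 -2.16) and rose in the pup-1(how20) double mutant (log2 0.94). 21ur-5284 fell in the henn-1 double mutant (log2 -2.04) and rose in the pup-1(how20) double mutant (log2 1.17). 21ur-7154 fell in the henn-1 double mutant (log2 -1.51) and rose in the parn-1 double mutant (log2 1.03). 21ur-783 rose in the henn-1 double mutant (log2 0.85) and fell in the pup-1(how20) double mutant (log2 -1.87). The differences between these changes were not tested. The disl-2 alleles differ between these backgrounds (how18, tm5337 and how27), and allele and background cannot be told apart.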

How the results depend on the processing

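The signs of the set's median change in the henn-1, parn-1 and pup-1 comparisons held under each alternative run. Rescaling to equal medians shifted the median of all 5614 piRNAs by 0.17 in henn-1, 0.24 in parn-1, 0.11 with pup-1(how50) and -0.12 at 0 h in the degron strain, and the set's medians after it were 0.26, 0.17, 0.15 and 0.06. It gave 41 falls in henn-1, 154 rises and 32 falls in parn-1, 67 falls with pup-1(how20), 63 falls with pup-1(how50) and 0 calls at 0 h in the degron strain, with 175 falling slopes in the degron strain and 28 with disl-2(how27). Over all 5614 falls were then 700 in henn-1, 750 in parn-1 (with 448 rises), 1015 with pup-1(how20) and 654 with pup-1(how50). Falling slopes were 543 in the degron strain and 55 with disl-2(how27). Rescaling also put the summed difference at 0.12 for disl-2(how27) and turned that of pup-1 to 0.34. With no filter, limma called 0 rises and 0 falls in henn-1, 1 and 0 in parn-1, 38 and 5 with pup-1(how20), 6 and 0 with pup-1(how50), and 0 rises at 0 h in the degron strain. More piRNAs entered that fit and its adjustment, 14581 in henn-1, parn-1 and pup-1. Rises and falls over all 14581 were 0 and 0 in henn-1, and 107 and 0 in parn-1. They were 159 and 147 with pup-1(how20), and 27 and 54 with pup-1(how50). A pseudocount of 0.1 also gave 0 rises at 0 h. The cause of these moves was not tested.

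With the replicate block, falls were 60 in henn-1 and 9 in parn-1, and no other count moved by over 1.5 times. Libraries of the same replicate number did not deviate together in henn-1 (r of deviations -0.08) or parn-1 (-0.09). In the pup-1 groups r ran from -0.30 to 0.21 and was over 0.1 in 1 of 3 pairs of groups. For the time course it ran from -0.39 to 0.36 and was over 0.1 in 10 of 45 pairs.

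With 1 library left out, where a lone library is assumed to vary like the others, rises and falls ran from 61 to 644 and 3 to 244 in henn-1, 0 to 449 and 0 to 11 in parn-1, 127 to 377 and 9 to 79 with pup-1(how20), and 42 to 321 and 8 to 53 with pup-1(how50). At 0 h in the degron strain rises ran from 0 to 1 and falls from 0 to 1. Falling slopes ran from 1029 to 1175 in the degron strain and 519 to 873 with disl-2(how27), and the difference of slopes gave 0 throughout. The summed log2 difference ran from 0.64 to 0.75 for disl-2(how27), -0.61 to -0.06 for disl-2(tm5337) and -0.672 to -0.407 for pup-1. The slope of the summed level, whose alternatives were chosen after seeing the data, ran from -0.147 to -0.131 in the degron strain and -0.0993 to -0.08225 with disl-2(how27).

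The 61 changes of named piRNAs were each recomputed under the alternatives. In 10 of these recomputed values the sign turned, all under rescaling and all among the shallowest slopes, which became 0.059 for 21ur-4415, 0.066 for 21ur-2325, 0.049 for 21ur-348, 0.048 for 21ur-2358 and 0.060 for 21ur-3448 in the degron strain, and 0.027 for 21ur-5967, 0.018 for 21ur-6127, 0.020 for 21ur-98, 0.025 for 21ur-1769 and 0.025 for 21ur-3448 with disl-2(how27). In another 172 recomputed values significance was lost, and in 802 direction and call were kept. Depth limits piRNAs near 1 RPM, a level that stands for 8.81 reads in the shallowest library.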
